A study of Mus musculus with 4 samples.

Results

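High-share barcodes are droplets in which over 20% of the unique molecular identifiers (UMIs, counted RNA molecules) came from the 13 protein-coding genes of the mitochondrial genome, among droplets with at least 1000 UMIs and 500 genes. They numbered 659 of the 32451 barcodes that passed these minimums and of 35707 barcodes in all. Barcodes of the same library with at most 20% served as the comparison (low-share barcodes, 31792 in number). The mitochondrial share itself chose the members, so mitochondrial levels and depth are given as a description, and tests were made on nuclear genes as a share of nuclear UMIs.

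Single cells were profiled from islets of wild-type male C57BL6J mice aged 8 weeks. The islets had been kept in culture for 24 h in 4 conditions and were dispersed with Accutase before 10x 3' library preparation, with about the same loading for each. One library was made per condition: DMSO vehicle at 3.9 mM glucose, 1 mM imeglimin at 3.9 mM glucose, vehicle at 11.1 mM glucose and 1 mM imeglimin at 11.1 mM glucose. Imeglimin is a glucose-lowering drug that acts on mitochondria. How many animals each library pooled is not stated, so nothing separates a condition from its library, and no test was made between conditions. Values for the 4 libraries are given below in the order just listed. The libraries held 96065809, 91245564, 103507322 and 106092232 UMIs.

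Mitochondrial messenger RNAs are made and kept inside the organelle, whereas nuclear messenger RNAs are exported to the cytoplasm, where most of them are found. Long non-coding RNAs such as Malat1 and Neat1 stay in the nucleus. Droplets rich in mitochondrial reads are usually taken for damaged cells that have lost cytoplasm, and are filtered out. In islets most endocrine cells are beta cells, which carry very large amounts of insulin messenger RNA, beside alpha (glucagon, Gcg), delta (somatostatin, Sst) and pp (pancreatic polypeptide, Ppy) cells.

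High-share barcodes were more numerous in the 3.9 mM libraries. There were 364 of 7530 barcodes in the vehicle 3.9 mM library (4.83%, 95% Clopper-Pearson interval 4.36 to 5.34) and 205 of 8960 in the imeglimin 3.9 mM library (2.29%, 1.99 to 2.62). There were 55 of 7499 in the vehicle 11.1 mM library (0.733%, 0.553 to 0.954) and 35 of 8462 in the imeglimin 11.1 mM library (0.414%, 0.288 to 0.575). Both 3.9 mM libraries lay above both 11.1 mM libraries, and at each glucose level the vehicle library lay above the imeglimin library. The intervals cover counting error only, and the differences have no replicate check. Without a minimum on UMIs and genes the shares were 13.4%, 8.42%, 5.21% and 3.74%, and of the 3256 barcodes below the minimums 2094 (64.3%) were over 20%. Among barcodes with at least 3000 UMIs, 13 of 29228 were over 20%. The order of libraries was another in these 2 groups: below the minimums 75.5%, 55.2%, 63.8% and 63.2% were over 20%, and at 3000 UMIs or more 0.0594%, 0.0269%, 0.0280% and 0.0632%.

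High-share barcodes were shallow. Their median was 1500 UMIs (range 1003 to 4947) and 665 genes, against 10855.5 UMIs and 3158 genes in low-share barcodes. Their median mitochondrial share was 26.8%, with 220 over 30%, 7 over 50% and a highest value of 68.1%, against a median of 2.27% in low-share barcodes. A median of 414 mitochondrial UMIs per barcode stood beside 259 in low-share barcodes, while the median of nuclear UMIs was 1080 against 10573.5. Per barcode, nuclear UMIs were thus far fewer and mitochondrial UMIs somewhat more numerous. Barcodes with 18 to 20% (165 of them, median 1326 nuclear UMIs) and those with 20 to 22% (121, median 1219) lay on either side of the limit. Over all libraries, insulin genes took 6.98% and 7.33% of their nuclear UMIs and Malat1 16.7% and 16.0%, but Gcg 0.462% and 0.0571%. By library Malat1 took 13.6%, 21.6%, 4.78% and 15.8% at 18 to 20% and 15.1%, 17.5%, 8.66% and 13.7% at 20 to 22%. Insulin genes took 5.36%, 7.78%, 19.2% and 8.74%, then 4.63%, 8.31%, 21.6% and 0.837%. The 11.1 mM libraries have 5 and 8 barcodes in the first range and 5 and 2 in the second. Of barcode sequences, 157 occurred in more than one library when summed over pairs of libraries, 2 of them with a high share in either and none in both. No doublet caller was run.

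**Figure D1:**
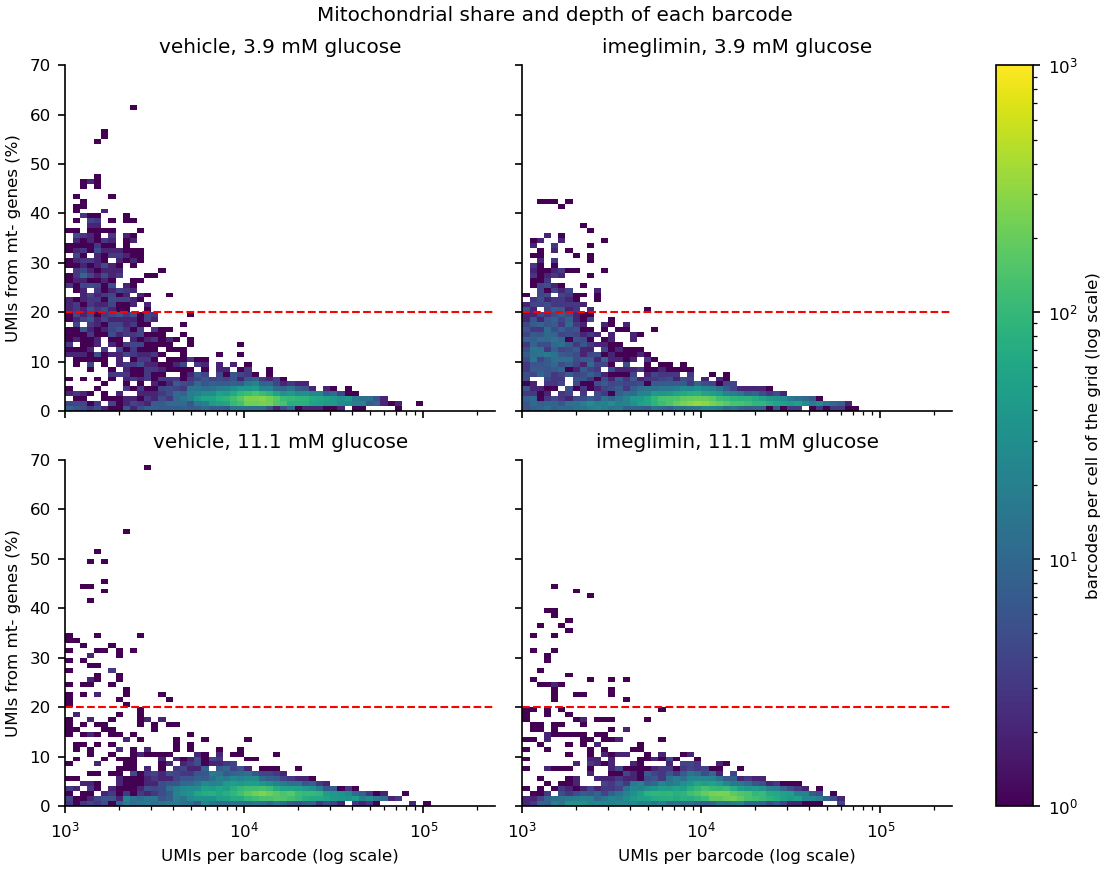
Percent of UMIs from mitochondrial genes (vertical axis) against UMIs per barcode (horizontal axis, log scale) for each library, with colour for the number of barcodes in each cell of the grid (log scale) and the 20% limit as a dashed line. Nearly all points above the line lie below 3000 UMIs, and the 3.9 mM libraries hold 364 and 205 of them against 55 and 35 in the 11.1 mM libraries.

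The 3 genes given as marks of these barcodes were high in them. The share of all UMIs from mt-Co1, a subunit of cytochrome c oxidase, was 6.05%, 5.29%, 4.90% and 4.03% in high-share barcodes and 0.648%, 0.538%, 0.522% and 0.419% in low-share barcodes. For mt-Atp6, a subunit of ATP synthase, the shares were 5.07%, 5.42%, 5.04% and 5.54% against 0.398%, 0.430%, 0.390% and 0.4005%. These 2 genes are part of the share that chose the barcodes. Malat1, which the limit did not use, is given below.

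The make-up of the mitochondrial UMIs was not the same in the 2 kinds of barcode. mt-Co1 made up 20.9%, 20.8%, 15.6% and 13.9% of mitochondrial UMIs in high-share barcodes and 25.8%, 24.0%, 20.8% and 17.4% in low-share barcodes, a mean difference of -4.20 ± 0.97 percentage points (SD, n = 4 libraries) that was lower in 4 of 4. mt-Co3, another cytochrome c oxidase subunit, was higher in 4 of 4 by 2.49 ± 0.73 points, and mt-Atp6 in 4 of 4 by 1.69 ± 0.85 points. The remaining 10 genes differed by less than 0.30 points in either direction on average, and of these mt-Nd2 was higher in 4 of 4. Levels also differed between glucose conditions in both kinds of barcode: mt-Cytb, of complex III, was higher in both 11.1 mM libraries than in both 3.9 mM libraries. Within one cluster of barcodes described below, mt-Co1 was again lower in 4 of 4 (-3.68 ± 0.97 points), whereas mt-Co3 was higher in 2 of 4 (0.08 ± 1.5 points). There mt-Atp6 was higher in 3 of 4 (0.56 ± 0.78 points).

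**Figure D2:**
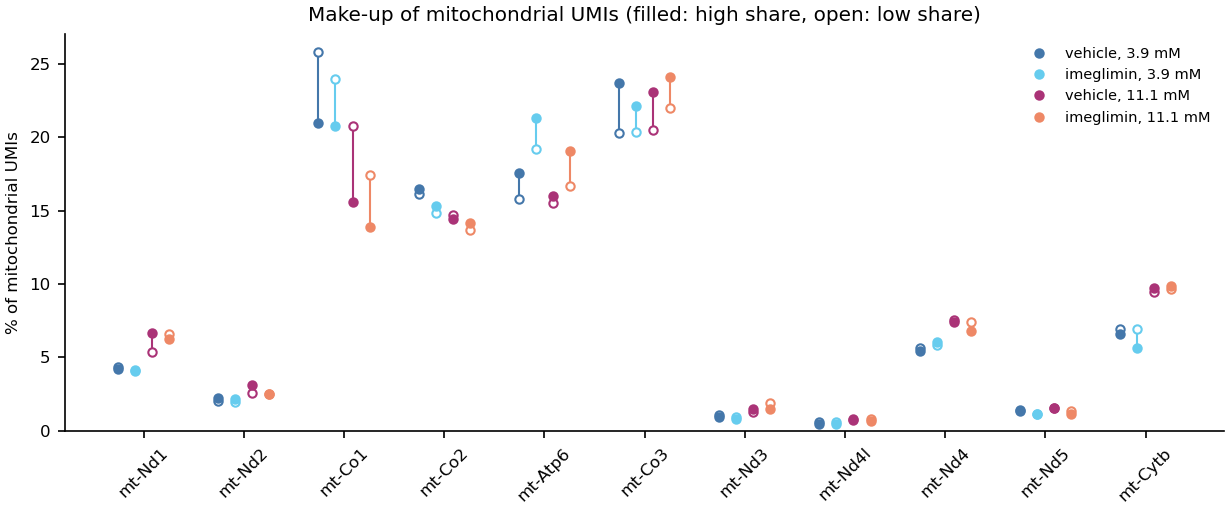
Percent of mitochondrial UMIs (vertical axis) from 11 mitochondrial genes in each library (colours), for high-share barcodes (filled points) and low-share barcodes (open points), each point being 1 sum over barcodes. mt-Co1 is lower in high-share barcodes in every library, and mt-Co3 and mt-Atp6 are higher. mt-Atp8 and mt-Nd6, under 0.2% each on average, are not drawn.

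When barcodes were clustered on nuclear genes alone, 613 of the 659 high-share barcodes (93.0%, 95% Clopper-Pearson interval 90.8 to 94.8) fell in 1 cluster of 1815 barcodes. By library this was 356 of 364, 185 of 205, 45 of 55 and 27 of 35. The cluster had a median of 1520 UMIs and was led by AY036118, Malat1, Gm42418, Paxbp1, Mlxipl and Neat1. It stayed unnamed because its highest marker score, 0.368 for beta, fell short of the 0.4 required for a name. Its next score was 0.0825, for alpha. It also held 1202 low-share barcodes: 299, 824, 40 and 39 by library, with median mitochondrial shares of 15.1%, 12.1%, 13.8% and 14.6%. Outside it, 38 high-share barcodes lay in beta-like clusters (8, 18, 7 and 5 by library), 6 in other named clusters and 2 in other unnamed ones. Among 3128 alpha-like barcodes none had a high share, which allows up to 0.118% (Clopper-Pearson), and among 716 pp-like barcodes none did, which allows up to 0.514%. Among 20725 beta-like barcodes 38 did (0.183%). As 93.3% of high-share barcodes lay in unnamed clusters, these rates depend on the naming. They do not show which cell classes the high-share barcodes came from.

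Markers of other cell types varied between libraries in high-share barcodes, and some of their sums were above the low-share level. All 6 T and NK, all 4 B and all 5 erythroid markers were at 0, but these were also near 0 in low-share barcodes (at most 0.339, 20.7 and 1.65 CPM, that is, UMIs scaled to a common total of nuclear UMIs, here with no further scaling), so a 0 tells little at this depth. Among stromal markers 6 of 9 were at 0, and among Schwann markers 4 of 6, but their sums were not low in every library. Stromal sums were 0, 4.2, 79.5 and 87.4 CPM against 47.1, 28.3, 53.6 and 29.2 in low-share barcodes. Schwann sums were 70.99, 25.2, 0 and 43.7 CPM against 16.5, 9.52, 8.66 and 5.9. In high-share barcodes these sums rest on 0, 1, 5 and 4 stromal UMIs and 30, 6, 0 and 2 Schwann UMIs. The 9 endothelial markers summed to 4.73 to 525 CPM over the libraries against 201 to 310 in low-share barcodes, and the 9 macrophage markers to 16.8 to 652 against 188 to 388. The 8 duct markers summed to 185 to 1002 against 635 to 751. The 8 alpha markers summed to 1016 to 2959 against 14106 to 28721, with Pou3f4 at 0, and the 10 beta markers to 68345 to 170570 against 144912 to 380925. The 11 acinar markers summed to 303, 529, 7096 and 43.7 against 647, 1069, 328 and 124. The 7096 came mostly from 1 barcode, which held 155 of the 254 UMIs of the chymotrypsinogen gene Ctrb1. Sums for the 11.1 mM libraries rest on few barcodes, and single barcodes can set them.

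Insulin was the hormone that high-share barcodes kept, at a lower share of nuclear UMIs than in low-share barcodes. The insulin genes Ins1 and Ins2 took 4.11%, 7.53%, 14.1% and 12.6% of nuclear UMIs in high-share barcodes and 8.82%, 14.6%, 29.3% and 24.5% in low-share barcodes. The log2 ratio was -1.10, -0.95, -1.06 and -0.95, so within each library high-share barcodes were lower, by nearly the same factor in 4 of 4, although the levels of the 2 kinds of barcode overlap between libraries. The 3 low-share barcodes nearest in depth to each high-share barcode were also compared, as described below. Against them the log2 ratio was 0.25, -0.25, 0.72 and 0.76, with no common direction. Against beta-like low-share barcodes, where the insulin genes took 11.1%, 21.0%, 33.6% and 28.5%, the gap was wider. The share differed between high-share barcodes too: the medians per barcode were 3.34%, 6.84%, 5.15% and 13.6%.

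Insulin RNA also reaches droplets from the surrounding fluid, so the level in endothelial- and macrophage-like barcodes was taken for comparison. It need not be free RNA alone. Endothelial- and macrophage-like low-share barcodes (326, 545, 362 and 603 by library, median 6575.5, 4010, 5451.5 and 3569 nuclear UMIs) carried 2.70%, 4.42%, 7.59% and 6.92% of nuclear UMIs from Ins1 and Ins2 as sums, and medians per barcode of 0.347%, 1.33%, 0.334% and 0.376%. With finer clusters (Leiden resolution 2), 147 barcodes scored highest for endothelial and next for beta (median 14687 UMIs). Another 75 scored for macrophage and then beta (median 15156 UMIs). Both clusters stayed unnamed there for mixed markers, and the part of such barcodes in the sums was not tested. High-share barcodes lay above these sums in 460 of 659 cases (69.8%): 238 of 364, 178 of 205, 24 of 55 and 20 of 35. Insulin was the most abundant of the 4 islet hormones in 652 of 659 high-share barcodes (98.9%), in 80.5% of low-share barcodes, and in 1793 of 1836 endothelial- and macrophage-like barcodes (97.7%). The share of barcodes led by insulin is thus close to that in endothelial- and macrophage-like barcodes. The mix of hormones was another, with 1.59, 0.887, 1.47 and 0.796 Gcg UMIs per 100 insulin UMIs in high-share barcodes against 12.8, 13.8, 5.62 and 6.11 in endothelial- and macrophage-like barcodes and 0.261, 0.163, 1.26 and 0.933 in beta-like low-share barcodes.

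Iapp, islet amyloid polypeptide, which beta cells secrete with insulin, lay closer to the level in endothelial- and macrophage-like barcodes than insulin did. It stood at 25874, 22294, 25774 and 32771 CPM (unscaled) in high-share barcodes, 55883, 43831, 85510 and 83732 in low-share barcodes and 19493, 16137, 22475 and 25099 in endothelial- and macrophage-like barcodes.

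Transcripts of the other islet hormones were low. Gcg stood at 653, 668, 2068 and 1006 CPM (unscaled) in high-share barcodes, below its level in low-share barcodes (18410, 25909, 12613 and 14043). It was also below the endothelial- and macrophage-like level in every library (3462, 6084, 4263 and 4227). How much of this Gcg came from the surrounding fluid was not tested. Single barcodes stood out: Gcg led in 5 and exceeded 1% of nuclear UMIs in 8 high-share barcodes, and 35 of its 130 UMIs in the vehicle 11.1 mM library and 16 of 46 in the imeglimin 11.1 mM library lay in 1 barcode each. Sst stood at 97.0, 122 and 239 in the first 3 libraries against 1693, 2612 and 3341 in low-share barcodes. In the imeglimin 11.1 mM library it was 2711 against 3411, and 108 of its 124 UMIs lay in 1 barcode. Ppy was 327, 126, 398 and 1290 against 6989, 7886, 5527 and 4204, with 32 of the 59 UMIs of the last library in 1 barcode, and Pyy, which encodes peptide YY, was 506, 227, 986 and 896 against 10378, 7822, 10406 and 6428. Ghrl (ghrelin) was at 0 UMIs in high-share barcodes.

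**Figure D3:**
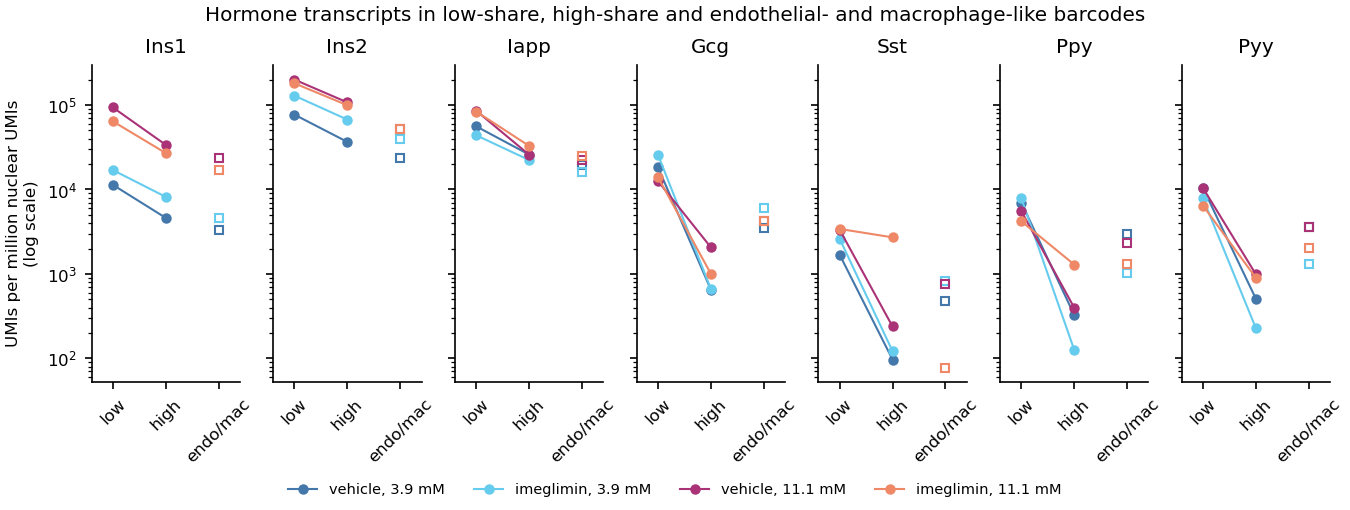
CPM of nuclear UMIs (unscaled totals, log scale) of 7 hormone genes in low-share barcodes, high-share barcodes (joined points) and endothelial- and macrophage-like low-share barcodes (open squares), 1 point per library. Ins1, Ins2 and Iapp lie lower in high-share than in low-share barcodes in each library. For Iapp the step is largest in the vehicle 11.1 mM library. Gcg in high-share barcodes lies below the squares in every library.

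To find which nuclear genes differed in the same way in the 4 libraries, sums of high-share and low-share barcodes were compared with edgeR's quasi-likelihood test with the library as a block, and p-values were adjusted by Benjamini-Hochberg over all 6696 genes with a mean of at least 20 CPM. The p-values measure the spread between the 4 libraries, which differ in condition and are not labelled as replicates. At adjusted p under 0.05, 1487 genes were higher (22.2% of those tested) and 2146 lower (32% of those tested) in high-share barcodes. These counts depend on the scaling. With TMM (trimmed mean of M-values) the median log2 fold change was -0.15, and with plain totals it was 0.32, a shift of 0.47 that moves all genes alike and gives 2390 higher (35.7%) and 1252 lower (18.7%). Values below are TMM-scaled.

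Depth was the other dividing choice. With the 3 low-share barcodes nearest in nuclear UMIs for each high-share barcode, 337 of 7109 genes were higher (4.74%) and 804 lower (11.3%). The match was close in the imeglimin 3.9 mM library (medians 1080 and 1140 nuclear UMIs) but not in the vehicle 3.9 mM library (1086.5 and 3703.5). At 11.1 mM glucose the medians were 1003 and 1642 with vehicle and 1130 and 1312 with imeglimin. With 1 low-share barcode for each, an alternative chosen after the data were seen, 23 of 7134 were higher (0.322%) and 287 lower (4.02%), with medians of 1086.5 and 1522 in the vehicle 3.9 mM library. The low-share barcodes so matched had themselves median mitochondrial shares of 12.9%, 12.5%, 4.06% and 3.36%, above the 2.27% of all low-share barcodes. Cell classes were not matched. Endothelial- and macrophage-like barcodes had medians of 4129 and 4537 UMIs, against 12142 in beta-like barcodes. Shallow low-share barcodes may thus differ in class from all low-share barcodes, and the part of this in the matched values was not tested.

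RNAs known to stay in the nucleus were higher in high-share barcodes. Of 8 tested in a list of 12, 7 were called higher and none lower, with a median log2 fold change of 2.37 beside -0.15 over all genes, and 22.2% of all genes called higher. Malat1 took 14.8%, 19.1%, 11.8% and 11.9% of nuclear UMIs against 1.74%, 3.13%, 1.33% and 2.53%, so that the 4 library sums did not overlap. Its log2 fold change was 2.24 ± 0.25 (SE, adjusted p = 4.84e-06). Against 3-to-1 matched barcodes it was 0.82 with an adjusted p of 0.206, past no threshold. Neat1, the scaffold of paraspeckles, was at 2208, 1786, 2003 and 3821 CPM against 274, 292, 376 and 670, a log2 fold change of 2.64 ± 0.19 (adjusted p = 3.87e-07). The imprinted RNAs Meg3 and Rian were higher by 2.403 ± 0.21 and 2.56 ± 0.16, and Kcnq1ot1, the antisense RNA of the Kcnq1 domain, by 2.03 ± 0.19. Rian (1.10, adjusted p = 0.0326) and Snhg11 kept the call against 1-to-1 matched barcodes, while Malat1, Neat1, Meg3, Kcnq1ot1 and Mirg did not. Snhg11 had the largest fold change of the named genes (3.27 ± 0.46) among those higher, but 35 of its 81 UMIs, and all of those of the imeglimin 11.1 mM library, came from 1 barcode. In the vehicle 11.1 mM library 10 of its 13 UMIs lay in 1 barcode. Its low-share sums were at 11.7, 5.32, 13.4 and 12.6 CPM (unscaled), so it passed the 20 CPM filter through high-share barcodes alone. Peg13 was not called (-0.09 ± 0.32, adjusted p = 0.838).

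Thinning each barcode to 500 nuclear UMIs removed the difference in depth from Malat1 detection. No barcode had too few UMIs for it. Afterwards, 0 of 364, 0 of 205, 1 of 55 (1.82%) and 1 of 35 (2.86%) high-share barcodes had no Malat1 UMI, against 3.29%, 1.94%, 4.54% and 2.49% of low-share barcodes. The zeros allow up to 1.01% and 1.78% (Clopper-Pearson). The intervals of the 11.1 mM libraries, 0.0460 to 9.72% with vehicle and 0.0723 to 14.9% with imeglimin, include their low-share values. Median Malat1 UMIs were 70, 95, 58 and 66 of 500 in high-share barcodes and 8, 15, 6 and 12 in low-share barcodes. Low-share barcodes of the unnamed cluster overlapped with the high-share ones, with medians of 67, 106, 73.5 and 79. Detected genes at that depth were alike at 3.9 mM glucose (353 and 319 against 354 and 327) and more numerous at 11.1 mM (324 and 319 against 270 and 284). Before thinning, all but 1 of the 659 had a Malat1 UMI.

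Transcripts of splicing factors and other nuclear RNA-binding proteins were higher as well. Of 26 tested, 23 were called higher and none lower (median log2 fold change 1.34), where 22.2% of all genes were higher. Against 3-to-1 matched barcodes 4 were called higher and none lower, where 4.74% of all genes were higher. Pnisr, an arginine- and serine-rich nuclear protein, stood at 706, 534, 787 and 508 CPM in high-share barcodes against 135, 125, 154 and 162, a log2 fold change of 2.16 ± 0.18 (adjusted p = 1.21e-06), and kept the call when matched 3 to 1 (1.24). Srsf11, a splicing factor, was higher by 2.09 ± 0.19 and the splicing kinase gene Clk1 by 2.07 ± 0.22. The list as a whole took 1.85%, 1.39%, 1.61% and 1.34% of nuclear UMIs against 0.498%, 0.460%, 0.439% and 0.429%, so splicing and nuclear RNA-binding proteins were higher in 4 of 4 libraries.

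Among genes called higher with the same sign in every library, clone-named gene models apart, the 10 highest were Snhg11, Neat1 and the following: Adgrv1 (3.17 ± 0.40), an adhesion G-protein-coupled receptor gene, Rgs11 (2.98 ± 0.25), a regulator of G-protein signalling, Firre (2.88 ± 0.29), a nuclear long non-coding RNA, Ints6l (2.70 ± 0.24), Ap4m1 (2.63 ± 0.33), Paxbp1 (2.62 ± 0.25), Pcsk4 (2.60 ± 0.44) and Snhg14 (2.57 ± 0.30). Firre was at 183, 73.0, 143 and 56.5 CPM against 16.5, 13.2, 19.0 and 22.3, and its 124 UMIs were spread over 109 high-share barcodes. Its low-share values lay mostly under the 20 CPM filter, so its high-share values carried it past that filter. Whether this holds for Adgrv1, Rgs11, Ints6l, Ap4m1, Paxbp1, Pcsk4 and Snhg14 was not tested. Adgrv1 rests on 77 UMIs and Pcsk4 on 50. Each has 2 in the vehicle 11.1 mM library and 1 in the imeglimin 11.1 mM library. Of the 10 highest genes, only Snhg11 and Ints6l were still called against 1-to-1 matched barcodes. Mlxipl, which encodes the glucose-responsive factor ChREBP, was at 741, 147, 620 and 65.6 CPM (unscaled) against 82.3, 22.9, 73.8 and 16.5 (log2 fold change 2.46 ± 0.21, 1.85 when matched 3 to 1, 1.03 and not called when matched 1 to 1). In both kinds of barcode Mlxipl was lower in the imeglimin libraries than in the vehicle libraries at the same glucose. The gene models Gm42418 and AY036118, which overlap ribosomal RNA, were higher by 2.39 ± 0.23 and 3.02 ± 0.20 and were not called in either matched comparison. They are reported as uncertain.

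Messenger RNAs of the translation machinery were lower. All 82 cytosolic ribosomal proteins tested (of 85) were called lower, with a median log2 fold change of -2.09, where 32% of all genes were lower. As a list, cytosolic ribosomal proteins took 3.29%, 3.74%, 2.02% and 4.68% of nuclear UMIs against 11.4%, 11.4%, 7.02% and 8.80%. With plain totals 81 were lower and none higher, and when matched 3 to 1 it was 77 and none. Of all genes, 18.7% were lower with plain totals and 11.3% when matched 3 to 1. The matched log2 ratio of the summed share of cytosolic ribosomal proteins was -1.64, -0.40, -2.21 and -1.23. It was smallest in the imeglimin 3.9 mM library, where the match in depth was close. There the matched ratio was 0.05 for Malat1, 0.14 for splicing and nuclear RNA-binding proteins and -0.14 for nuclear oxidative phosphorylation subunits. The low-share barcodes matched 3 to 1 had median mitochondrial shares of 3.93%, 11.6%, 3.07% and 1.65%, highest in that same library. The parts of depth and of mitochondrial share in these ratios were not tested. Rps4x, a protein of the small subunit, stood at 308, 342, 200 and 395 CPM against 1599, 1958, 1300 and 1429 (-2.37 ± 0.21, adjusted p = 1.39e-06), and was still lower when matched 1 to 1 (-1.33). In barcodes thinned to 500 nuclear UMIs the median was 15, 18, 5 and 12 ribosomal protein UMIs in high-share barcodes and 55, 55, 33 and 43 in low-share barcodes. All 21 tested translation factors were lower as well (median -1.62, 10 of 21 when matched 3 to 1), among them Eef1a1 (-2.01 ± 0.21), which carries aminoacyl-tRNA to the ribosome.

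Nuclear genes for mitochondrial proteins were lower in most lists, measured as a share of nuclear UMIs. Of 79 tested nuclear oxidative phosphorylation subunits, 76 were called lower and none higher (median -1.77), where 32% of all genes were lower. When matched 3 to 1, 28 of 80 were lower, where 11.3% of all genes were. Nuclear oxidative phosphorylation subunits took 0.862%, 0.920%, 0.465% and 0.920% of nuclear UMIs against 2.27%, 2.003%, 1.4998% and 1.81%. Cox6b1, a cytochrome c oxidase subunit that works beside mt-Co1, stood at 85.5, 99.8, 71.5 and 151 CPM against 492, 490, 477 and 552 (-2.38 ± 0.22, adjusted p = 1.69e-06). Of 70 mitochondrial ribosomal proteins 55 were lower and none higher (median -1.39), 11 of 69 when matched 3 to 1. Of 49 genes of mitochondrial import, carriers and outer membrane 27 were lower and 7 higher (median -0.82), and 6 and 1 of 50 when matched 3 to 1, where 11.3% of all genes were lower. Of 13 mitochondrial chaperones and proteases 6 were lower, among them Hspd1 (-1.34 ± 0.24) and Hspa9 (-1.08 ± 0.20), and 1 was higher, with 1 lower when matched 3 to 1. Of 10 genes of mitochondrial DNA and RNA upkeep 3 were lower and 2 higher, a split close to that of all genes (32% and 22.2%) that turned to 3 and 4 with plain totals. Tfam, which packages mitochondrial DNA, was lower (-1.44 ± 0.37, adjusted p = 0.00394) and was not called when matched 3 to 1.

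Most cytoskeleton, proteasome and antioxidant genes tested were lower too, where 32% of all genes were. All 15 cytoskeleton genes tested were lower (median -1.85), and 12 of 14 when matched 3 to 1, where 11.3% of all genes were. Pfn1 (profilin, -2.63 ± 0.27) and Tmsb4x (thymosin beta, -2.36 ± 0.23) kept the call when matched 1 to 1 (-2.09 and -3.26). Of 36 proteasome genes 32 were lower (median -1.35), and of 20 metallothioneins and antioxidants 18 were lower (median -1.63). Of 15 glycolysis genes 8 were lower and 1 higher, with Gapdh at 131, 88.3, 329 and 320 CPM against 641, 510, 1780 and 1860 (-2.43 ± 0.20, adjusted p = 1.19e-06). None of these 4 lists had more genes higher than lower with plain totals.

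Fold change varied with gene span. With tested genes split into tertiles by the length from start to end in GENCODE vM21 on GRCm38, the median log2 fold change was -0.91 in the shortest tertile (median span 7204.5 bp), -0.15 in the middle tertile (27524.5 bp) and 0.35 in the longest tertile (90781 bp). In the shortest tertile 10.3% of genes were called higher and 55.3% lower, and in the longest tertile 35.6% higher and 12.6% lower. Without ribosomal protein and oxidative phosphorylation genes the medians were -0.78, -0.12 and 0.35, and when matched 3 to 1 they were -0.48, -0.03 and 0.23. Genes of one length are not independent, and these values are a description.

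Lists that serve the secretory pathway held genes called in both directions, where 32% of all genes were lower and 22.2% higher. Of 35 tested genes of endoplasmic reticulum folding and translocation, 19 were lower and 3 higher (median -0.52). With plain totals it was 13 and 5 with a median of 0.00, and when matched 3 to 1 it was 2 and none. Summed, endoplasmic reticulum folding and translocation genes took 1.76%, 1.38%, 1.40% and 1.44% of nuclear UMIs against 1.53%, 1.41%, 1.29% and 1.54%. The small translocon subunits Sec61b (-2.28 ± 0.24) and Sec61g (-2.08 ± 0.24) were lower, and the chaperone gene Hspa5 was slightly higher (0.49 ± 0.20, adjusted p = 0.0490, 3 of 4 libraries). Of 25 genes of granule proteins and hormone processing 8 were lower and 5 higher, which turned to 6 and 8 with plain totals. Both splits are close to those of all genes, which were 18.7% lower and 35.7% higher with plain totals. When matched 3 to 1 the granule counts were none and 4, where 11.3% of all genes were lower and 4.74% higher. Snap25, of the vesicle fusion machinery, was higher in 4 of 4 libraries (1.84 ± 0.17), and Rab3a (-1.998 ± 0.32), Resp18 (-1.78 ± 0.22) and Scgn (-1.496 ± 0.31) were lower and not called when matched 3 to 1. Chga and the prohormone convertase gene Pcsk2 did not pass the test (-0.02 ± 0.21 and -0.18 ± 0.21).

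Among 14 tested endocrine transcription factors 6 were lower and 4 higher, turning to 2 and 6 with plain totals, beside 32% and 22.2%, then 18.7% and 35.7%, of all genes. Pdx1 and Mafa, which drive insulin transcription, did not pass the test (0.29 ± 0.25 and -0.48 ± 0.24), and Nkx6-1 was lower (-0.56 ± 0.18, adjusted p = 0.0157). The 10 lowest genes included the hormones of other endocrine cells. The log2 fold change was -4.69 ± 0.36 for Gcg, -4.50 ± 0.46 for Ppy, -4.48 ± 0.31 for Pyy and -3.63 ± 0.50 for Sst, and all 4 were also called lower when matched 1 to 1. Ttr and Rbp4, carriers of thyroid hormone and retinol, were at -3.68 ± 0.28 and -3.79 ± 0.48, Gpx3 at -3.49 ± 0.39 and Tspan8 at -3.41 ± 0.39. Of the 27 Rbp4 UMIs in high-share barcodes 11 lay in 1 barcode, and Gpx3 and Tspan8 rest on 11 and 8 UMIs. Low-share barcodes hold 9.84% alpha-like, 4.67% delta-like and 2.25% pp-like barcodes, high-share barcodes 0, 1 and 0 barcodes of these, with 93.3% of high-share barcodes unnamed. The part of that difference in these genes was not tested.

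Ins1, Ins2 and Iapp were called lower against all low-share barcodes (-1.80 ± 0.22, -1.47 ± 0.22 and -1.82 ± 0.24), but DESeq2 did not call Ins1 (adjusted p = 0.222) or Ins2 (adjusted p = 0.0859), and none of the 3 was called when depth was matched. With matching the log2 fold changes were -0.01, 0.26 and -0.13 with 3 barcodes for each (adjusted p = 0.986, 0.713 and 0.855), and 0.53, 0.68 and 0.19 with 1 (adjusted p = 0.690, 0.671 and 0.915). Higd1a and Igfbp3 had no UMI in the 769350 nuclear UMIs of high-share barcodes. Both passed the 20 CPM filter through low-share barcodes alone. Igfbp3 is among the leading genes of an endothelial-like cluster, and endothelial-like barcodes were 3.81% of low-share and 0.303% of high-share barcodes. In low-share barcodes Higd1a, a gene of the inner mitochondrial membrane induced by low oxygen, was at 27.3 to 82.9 CPM (unscaled) and Igfbp3 at 12.6 to 83.4.

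Stress lists showed no common rise. Of all genes, 32% were lower and 22.2% higher with TMM, and 18.7% and 35.7% with plain totals. When matched 3 to 1 it was 11.3% and 4.74%, and the counts below are to be read beside these shares. Of 23 genes of the integrated stress response 11 were lower and 2 higher with TMM, 5 and 2 with plain totals, and none and 1 when matched 3 to 1. Ddit3, which encodes CHOP, was at 684, 1033, 111 and 459 CPM (unscaled) in high-share barcodes and 1149, 1475, 103 and 325 in low-share barcodes. Of 13 tested apoptosis and p53 target genes 5 were lower and none higher, led by Cdkn1a (-2.09 ± 0.33). Of 13 cytosolic heat shock genes 6 were lower and none higher, which became 3 and 2 with plain totals. Of 12 hypoxia genes 5 were lower and 2 higher, the reverse of the split with plain totals, and Vegfa was higher in 4 of 4 libraries (1.10 ± 0.18) but not called when matched 3 to 1 (0.85, adjusted p = 0.0881). Of 18 ferritin and lysosome genes 10 were lower, led by Ctsz (-3.01 ± 0.33), and of 4 NF-kappaB genes 2 were higher and 2 lower. None of 11 acinar enzymes was called. The 11 tested immediate early genes had 5 lower and none higher, while their summed share moved in opposite directions by glucose, as given in the closing section.

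**Figure D4:**
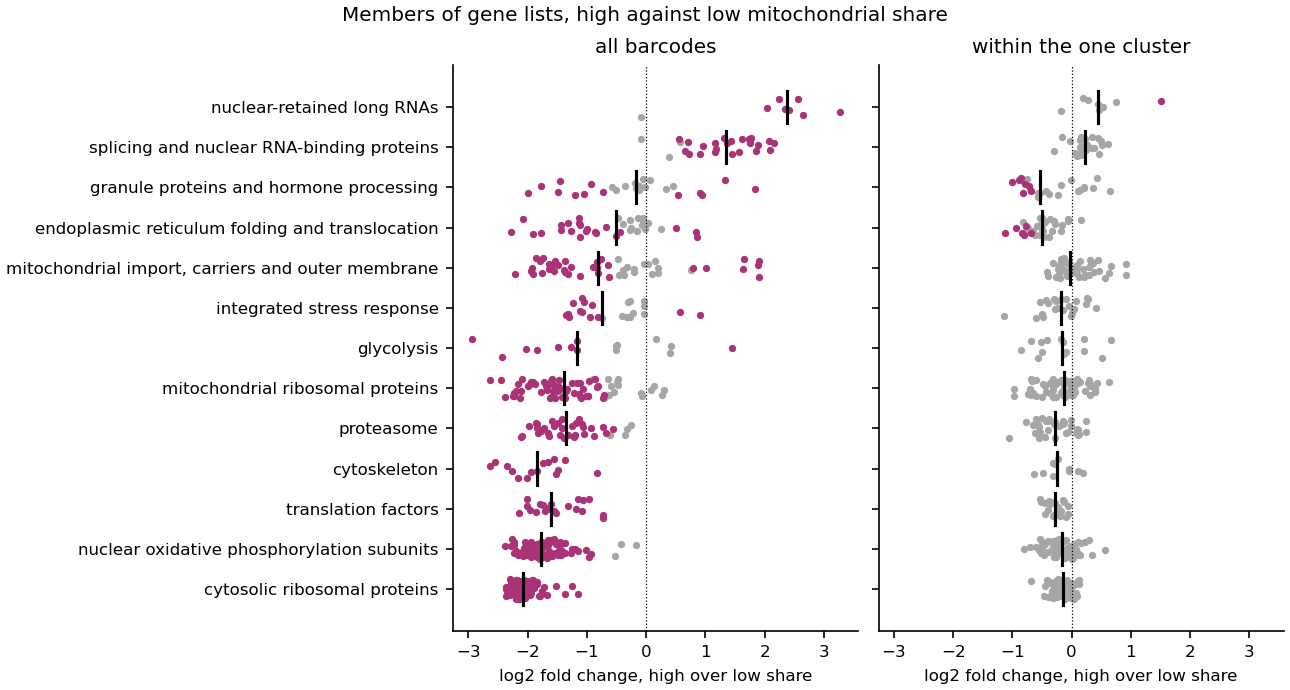
Log2 fold change of high-share over low-share barcodes (horizontal axis) for each tested member of 13 gene lists, across all barcodes (left) and within the cluster that holds most high-share barcodes (right). Coloured points pass adjusted p under 0.05, grey points do not, and black bars are list medians. On the left ribosomal and oxidative phosphorylation genes lie near -2 and nuclear RNAs above 2, and on the right most points lie near 0 with endoplasmic reticulum and granule genes below it.

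Across the range of mitochondrial share the nuclear profile of the 3.9 mM libraries differed mostly below the 20% limit, and that of the 11.1 mM libraries on both sides of it. In the vehicle 3.9 mM library Malat1 took 1.69% of nuclear UMIs at 2 to 5%, 2.91% at 5 to 10%, 11.2% at 10 to 20%, 15.01% at 20 to 30% and 14.5% at 30 to 50%. In the imeglimin 3.9 mM library the Malat1 values were 3.33%, 8.07%, 18.8%, 19.4% and 17.4%. In the 11.1 mM libraries Malat1 took 5.23% and 8.55% at 10 to 20%, 11.4% and 9.46% at 20 to 30%, and 12.5% and 16.97% at 30 to 50%. Cytosolic ribosomal proteins went from 11.6% at 2 to 5% to 4.47% at 10 to 20% and 3.22% at 30 to 50% in the vehicle 3.9 mM library. Insulin genes were lower in each successive range in all 4 libraries, from 10.6%, 18.04%, 30.4% and 27.3% under 2% to 3.49%, 6.51%, 11.97% and 9.20% at 30 to 50%. The share of barcodes in the unnamed cluster was 12.1%, 40.3%, 1.46% and 1.05% at 5 to 10% and 83.2%, 84.5%, 34.2% and 47.3% at 10 to 20%. The imeglimin 11.1 mM library has 15 barcodes at 30 to 50%.

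**Figure D5:**
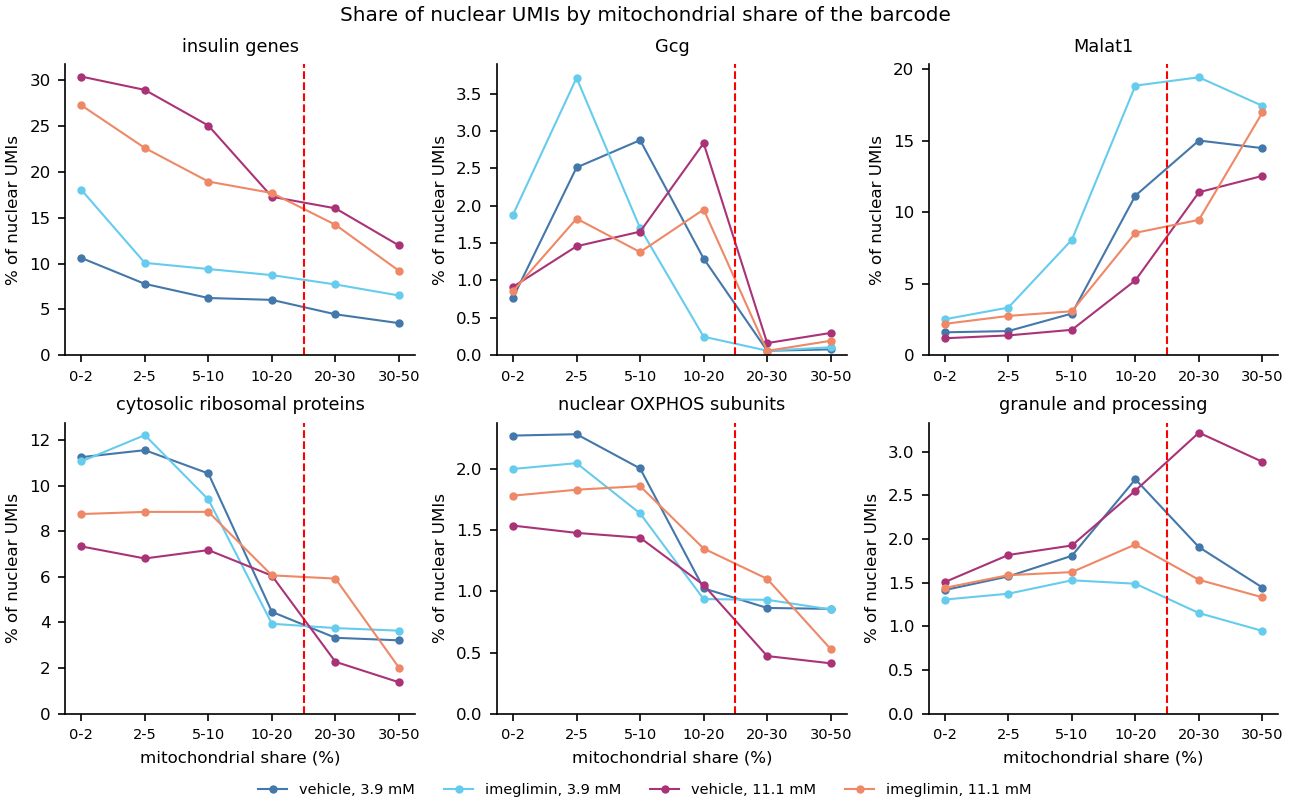
Percent of nuclear UMIs (vertical axes, each from 0) taken by 6 gene sets in barcodes grouped by mitochondrial share (horizontal axis, percent), 1 line per library, with the 20% limit dashed. In the 3.9 mM libraries Malat1 is higher, and ribosomal and oxidative phosphorylation genes lower, from the range of 10 to 20% on, and insulin genes are lower in each successive range in the 4 libraries. The 7 barcodes over 50% are not drawn.

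To hold the nuclear profile alike, high-share and low-share barcodes were then compared inside the unnamed cluster, in an alternative chosen after the data were seen. There, 12 of 6824 genes were higher (0.176%) and 28 lower (0.41%), and 593 had an unadjusted p under 0.05. With plain totals the counts were 27 and 16. Without the vehicle 3.9 mM library, which holds 356 of the 613 high-share barcodes, 2 were higher and 2 lower. Without each of the other libraries in turn they were 5 and 32, 11 and 16, and 7 and 11. None of the 81 ribosomal protein genes, 79 oxidative phosphorylation genes or 26 splicing genes tested was called, with medians of -0.15, -0.16 and 0.23 beside -0.01 over all genes. Malat1 did not pass the test (-0.18 ± 0.20, adjusted p = 0.843). The cluster was drawn on these same nuclear counts, so its barcodes were grouped for being alike in them. The lack of calls in these lists and for Malat1 thus shows little.

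The genes called lower inside the cluster included a group of the secretory pathway. Of 35 endoplasmic reticulum genes 6 were lower and none higher (median -0.51), and of 25 granule genes 7 were lower and none higher (median -0.54), where 0.41% of all genes were lower. Pam, which amidates peptide hormones, stood at 284, 272, 414 and 573 CPM against 515, 362, 1090 and 2079 (-1.01 ± 0.19, adjusted p = 0.000782). The carboxypeptidase gene Cpe was lower in 4 of 4 libraries, at 816, 1017, 888 and 717 CPM against 1819, 1242, 1608.5 and 1782 (-0.85 ± 0.18). Scg3, of the granule matrix, was lower by -0.88 ± 0.18, the chaperone genes Sdf2l1, P4hb, Pdia3 and Dnajb9 by -1.13 ± 0.26, -0.94 ± 0.20, -0.83 ± 0.19 and -0.80 ± 0.21, and Hsp90aa1 by -0.82 ± 0.19. All of these but P4hb were lower in 4 of 4 libraries. Ins1 was at 4414, 8459, 28358 and 19808 CPM against 8640.5, 12897, 45780 and 30066, lower in 4 of 4 (-0.72 ± 0.18, adjusted p = 0.0252), and Ins2 just missed the threshold (-0.70 ± 0.19, adjusted p = 0.0532). Gcg was lower (-0.86 ± 0.18) but not in every library. Of 29 named genes called in the cluster and tested without the vehicle 3.9 mM library, 3 kept their call, and with plain totals 23 of 30 did. Median depth differed here too, at 1081, 1072, 944 and 1062 nuclear UMIs in high-share barcodes against 1685, 1292, 1275 and 1338, and its part in these values was not tested.

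Of the genes called with the same sign in every library of the cluster, Bcl2l1 had the lowest fold change. It is an inhibitor of apoptosis, and its value rests on 5 UMIs over all high-share barcodes (-2.56 ± 0.67, adjusted p = 0.0379). Etv1, a transcription factor of the ETS family, was lower by -2.19 ± 0.37 with 16 UMIs, and Umps, Nap1l5, Serpini1, Dhrs7, Tgoln1 and Saraf by -1.84, -1.59, -1.34, -1.10, -0.98 and -0.98. Ero1l and P4ha1, counted as hypoxia genes, were lower by -1.22 and -0.85, and Hspa1b by -1.58, Ero1l and Hspa1b in 3 of 4 libraries. Higher were Snhg11 (1.502 ± 0.32, resting on the same single barcode in 1 library), Kif12 (1.18 ± 0.28), Cttnbp2 (1.05 ± 0.23), Insrr (0.98 ± 0.26), an insulin receptor-related gene, Cep70 (0.97), Zfp950 (0.95) and Eml5 (0.76). Cttnbp2 was at 255, 149, 513 and 315 CPM against 125, 96.0, 173 and 74.2. Its 177 UMIs over all 659 high-share barcodes were spread over 133 of them. The acinar gene Ctrb1 was also called higher (1.22 ± 0.32, not in every library).

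Differences between conditions seen in low-share barcodes had the same direction in high-share barcodes for Ins1, Mt1 and Ddit3, but not for all genes. Ins1 was 2.87 log2 units higher at 11.1 than at 3.9 mM glucose with vehicle in high-share barcodes (95% counting interval 2.78 to 2.96) and 3.04 in low-share barcodes. Mt1, a metallothionein, was at 5452, 9457, 1289 and 6427 CPM (unscaled) in high-share and 10187, 13688, 2033 and 7865 in low-share barcodes with the vehicle 11.1 mM library lowest and the imeglimin 3.9 mM library highest in both kinds of barcode. Of the 81 Mt1 UMIs of high-share barcodes in the vehicle 11.1 mM library 43 lay in 1 barcode, so ratios against that library rest largely on it. With imeglimin against vehicle Mt1 was higher by 0.79 (0.71 to 0.88) at 3.9 mM and by 2.32 (1.96 to 2.69) at 11.1 mM in high-share barcodes, and by 0.43 and 1.95 in low-share barcodes. Ddit3 with imeglimin was higher by 0.60 (0.34 to 0.85) and 2.04 (0.76 to 3.52), against 0.36 and 1.65. Iapp differed: at 11.1 against 3.9 mM glucose with vehicle its ratio was -0.01 (-0.08 to 0.07) in high-share and 0.61 in low-share barcodes. Malat1 with imeglimin at 11.1 mM was 0.00 (-0.05 to 0.05) in high-share and 0.93 in low-share barcodes. These intervals leave out the spread between barcodes, cultures and animals, and whether the ratios differ between the 2 kinds of barcode was not tested.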

How the data were processed

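Single-cell libraries of cultured islets were analysed, 1 per condition. The deposited values are raw UMI counts in whole numbers for each barcode and gene. Per the submitters' processing notes, Cell Ranger 6.0.2 and mm10 were used. Members, gene lists and tests were chosen with earlier results of these data known. Barcodes with at least 1000 UMIs and 500 genes were split at 20% mitochondrial UMIs, and no doublets were removed. Nuclear UMIs were summed per library and side, giving 45742 to 422618 nuclear UMIs in high-share and 88049288 to 103108754 in low-share sums. They were tested with edgeR 4.0.16 (quasi-likelihood, TMM, library as block, mean of at least 20 CPM, Benjamini-Hochberg adjusted p under 0.05), so every adjusted p in the text is from edgeR unless another tool is named. DESeq2 1.42.0 and limma 3.58.1 (pseudocount of 10 CPM) were alternatives. Clusters were drawn on nuclear genes with scanpy 1.11.5 (2000 variable genes, 30 components, 15 neighbours, Leiden resolution 1). They were named "-like" from marker genes, and the lowest score for a name, 0.4, was set after the data were seen.

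The genes named were the 10 highest and the 10 lowest called genes with the same sign in every library (without clone-named models), the hormones, the nuclear RNAs and up to 4 called members of each of the other lists, with the largest change. Some genes that this rule names are not reported here. Also named, chosen after their values were seen, were Hspa5, Chga, Pcsk2, Pdx1, Mafa, Nkx6-1, Ddit3 and Mt1. A fit within beta-like barcodes was planned but could not be made, since 1 library had 10 or more high-share beta-like barcodes. For gene span, 32235 of the 32285 identifiers (99.8%) matched GENCODE vM21. On data simulated from the sums of all barcodes (6696 genes), 45 of 100 genes changed 2-fold and 88 of 100 changed 4-fold were recovered, with 2 false calls among 135. For the unnamed cluster (6824 genes) it was 39 and 88, with 2 false calls among 129. Intervals are exact (Poisson, Clopper-Pearson; 95%) and cover counting error only.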

Additional observations from a re-analysis of the deposited data

Results flagged for a closer look

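The summed share of immediate early genes moved in opposite directions by glucose. In high-share over low-share barcodes its log2 ratio was -1.48 in the vehicle 3.9 mM library and -0.69 in the imeglimin 3.9 mM library, but 0.58 in the vehicle 11.1 mM library and 0.71 in the imeglimin 11.1 mM library. Immediate early genes took 0.0409%, 0.107%, 0.178% and 0.195% of nuclear UMIs in high-share barcodes (173, 254, 112 and 89 UMIs) and 0.114%, 0.172%, 0.120% and 0.119% in low-share barcodes. Against the low-share barcodes nearest in nuclear UMIs (3 to 1) the log2 ratio was -2.20, -0.65, -1.17 and -0.95. High-share barcodes were thus lower in all 4 libraries, and the opposite directions were not seen there. Within the unnamed cluster it was -0.52, -0.65, 0.35 and 0.34. Egr1 was at 0, 11.5, 300 and 151 CPM in high-share barcodes against 27.2, 37.7, 119 and 62.1, and Jun at 31.8, 188, 186 and 527 against 73.9, 297, 124 and 142. Egr1 and Jun were chosen after their values were seen. Each glucose level has 1 library per treatment, and the difference was not tested.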

How the results depend on the processing

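Counts of called genes (1487 higher, 2146 lower) moved by over 1.5 times with plain totals (2390 and 1252), a mean of at least 100 CPM (572 and 588 of 1521 tested, fewer genes), 3-to-1 matching (337 and 804) and 1-to-1 matching (23 and 287). A limit of 30% gave 877 higher, and means over barcodes with limma gave 1023 lower. DESeq2 called 1296 and 1597. Leaving out 1 library gave 724 to 1715 higher and 1000 to 2186 lower, the lowest without the vehicle 3.9 mM library. Within the unnamed cluster (12 and 28) plain totals gave 27 and 16, and leaving out 1 library 2 to 11 higher and 2 to 32 lower. Of the named genes called across all barcodes, 80 of 116 kept their call and direction with 3-to-1 and 35 of 114 with 1-to-1 matching. Signs turned for Ins2 (0.26 with 3 to 1, 0.68 with 1 to 1), Ins1 (0.53) and Iapp (0.19) with 1 to 1, Chac1 (0.23 and 0.16), Mthfd2 (0.14) and Nfkbiz (-0.11), none past the threshold there.

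The mean log2 ratio of shares for insulin genes (-1.02) was 0.37 with 3-to-1 matching, -0.90 as means over barcodes and -1.33 at 30%. With matching it was 0.98 for Malat1 (2.77), -0.88 for oxidative phosphorylation subunits (-1.30), 0.28 for endoplasmic reticulum genes (0.05) and 0.73 for splicing genes (1.75), and at 30% it was -0.20 and 1.96 for the last 2. Low-share barcodes without Malat1 were 0.321%, 0.114%, 0.349% and 0.403% without thinning and 6.60%, 3.66%, 8.85% and 4.25% at 300 UMIs, and high-share ones in the imeglimin 11.1 mM library were 0% without thinning. Shares of high-share barcodes were 13.4%, 8.42%, 5.21% and 3.74% with no minimum and 0.0594%, 0.0269%, 0.0280% and 0.0632% at 3000 UMIs or more. Shares in the unnamed cluster at other resolutions and mitochondrial make-up as means over barcodes moved by less than their error. The causes were not tested.

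High-share and low-share sums were paired within libraries by the library block of the main test. The fit within beta-like barcodes was not run. Few barcodes (55 and 35) limit what the 11.1 mM libraries can show.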
